A study of Bos taurus with 30 samples.

Results

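The miRNAs described here are miR-9, miR-124 and miR-129, known mainly from the nervous system, in testis tissue of young bulls. They were taken from the table by number alone: every row named miR-9, miR-124 or miR-129, with any letter or arm, which gave 7 of the 1030 rows. The 7 rows held 5 distinct sets of values, because miR-124a and miR-124b were identical in all 30 libraries, as were miR-129 and miR-129-5p. Each identical pair is treated below as 1 measurement. The other rows were miR-9-5p, miR-9-3p and miR-129-3p.

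The libraries came from Holstein-Friesian calves that differed in how much they were fed from 2 weeks of age until the testes were sampled at 12 weeks. The High group (15 calves) was given 10 L of milk replacer holding 1.5 kg a day, with unrestricted concentrate, for a planned gain of 1.0 kg a day. The Moderate group (15 calves) was given 4 L holding 0.5 kg, with 0.5 kg of concentrate, for a planned gain of 0.5 kg a day. Small RNA of the tissue as a whole was sequenced in 1 library per calf. Tests between diets therefore set a difference against the spread between calves, which here includes library and counting variation. The comparison asks whether early feeding changed the miRNAs of the testis.

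A miRNA is cut from a hairpin precursor, either side of which (the 5p and the 3p arm) can give a mature strand that lowers the output of mRNAs pairing with its seed. miR-9 acts in neural progenitors and the timing of neurogenesis. miR-124 is abundant in neurons and represses PTBP1, a splicing regulator of non-neuronal cells. Genes of both are silenced outside neurons by the repressor REST. miR-129 is enriched in brain, and its 3p arm has also been linked to the formation of cilia. Nerve fibres are a minor part of testis tissue, which is mainly seminiferous tubules and the interstitium.

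Before the results, 2 features of the series need stating. First, the diet used here is the diet characteristic of each sample, which had the same diet as the sample code in all 30 libraries, while the sample title named the other diet in 18 of them (9 per diet). Second, Moderate replicate 5 stood apart: miR-10b, the most abundant miRNA, made up 84.8% of the reads there, compared with a share of 37.0% to 49.0% among the 29 remaining libraries. Depth ranged from 6.0003 M to 19.98 M reads, in a shallow range (24 libraries, up to 10.3 M) and a deep one (6 libraries, from 16.68 M, 4 High and 2 Moderate). The gonadal miRNA miR-202 lay between 1055 and 3282 in all libraries, in the deposited unit described next.

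Values are deposited levels in CPM (reads scaled to a common library total), corrected for library composition by TMM, a trimmed-mean scaling that balances most miRNAs between libraries. Mature miRNAs have nearly the same length, so levels of different rows were set side by side without a length correction. How evenly the libraries captured different sequences was not measured, so orders and ratios between rows are those of reads. miR-9-5p was the most abundant of the group, at 33.8 ± 9.52 (SD, n = 30), rank 177 of the 838 miRNAs that had any read. miR-129-5p followed at 5.43 ± 1.63 (rank 272), then miR-124 at 3.55 ± 1.17 (rank 300) and miR-129-3p at 2.13 ± 0.650 (rank 342). miR-9-3p came last at 0.371 ± 0.198 (rank 468). This order was clear at its ends and loose in the middle: miR-9-5p exceeded miR-129-5p in 30 of 30 libraries and miR-129-3p exceeded miR-9-3p in 30 of 30, whereas miR-129-5p exceeded miR-124 in 25 and miR-124 exceeded miR-129-3p in 23. No member was abundant, since miR-9-5p took on average 0.00345% of a library's reads.

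The number of reads behind these levels was small. The median library held 305 reads of miR-9-5p (range 91 to 803), 53.5 of miR-129-5p (11 to 140), 29.5 of miR-124 (10 to 92), 22 of miR-129-3p (4 to 48) and 3 of miR-9-3p (0 to 17). For miR-9-5p the coefficient of variation over libraries was 28.2%, against 6.08% from counting error alone, so counting error was a small part of its spread. The corresponding values were 33.1% and 19.04% for miR-124 and 30.1% and 15.5% for miR-129-5p. For miR-129-3p they were 30.5% and 25.4%, and for miR-9-3p 53.4% and 63.8%, so that the spread of miR-9-3p was no larger than counting error. Reads carried no molecular identifiers, and these estimates cover counting error only.

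**Figure D1:**
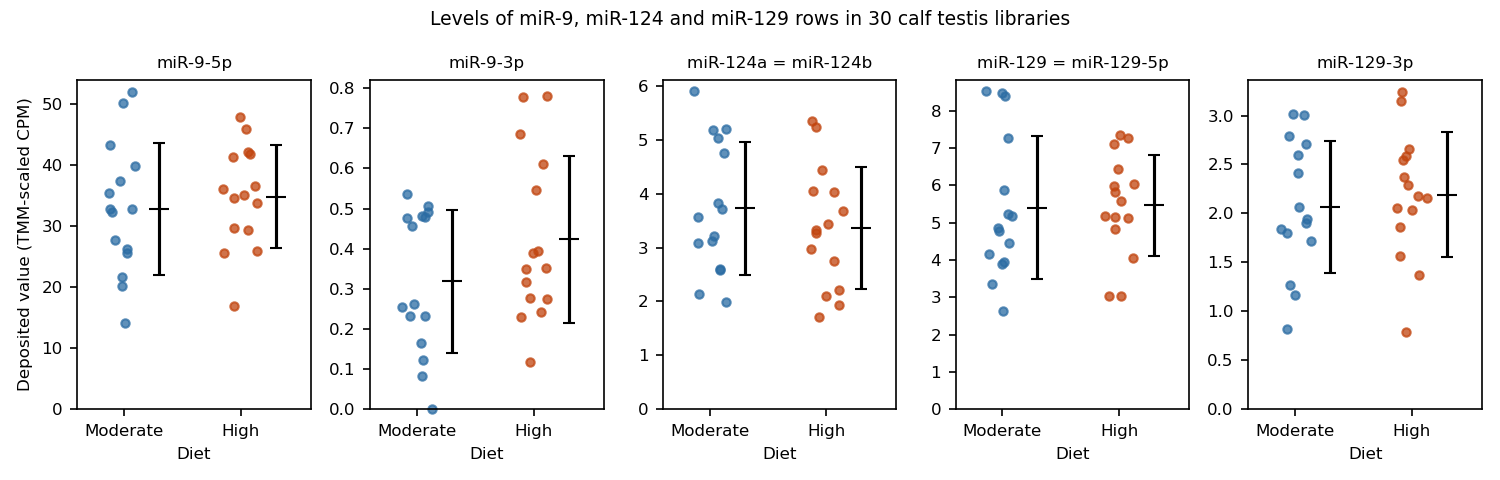
Level of each distinct row (TMM-scaled CPM, linear axes from 0, 1 panel per row) in each library, by diet, with 15 points per diet and the mean ± SD beside them in black. The diets overlapped in every panel, and miR-9-3p was under 1 in all 30 libraries.

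The plane of nutrition was accompanied by no detected change in miR-9, miR-124 or miR-129. Of the 7 rows, 6 (4 distinct) passed the filter on low values (15 or more libraries at 1 or above), and 0 of them passed an adjusted p of 0.05 in limma, with 0 at an unadjusted p under 0.05 (21.2% of all fitted miRNAs). In limma 4.91% of all 387 fitted miRNAs were called, 2.33% higher and 2.58% lower under High, and set against these shares 0 of 4 distinct rows shows nothing particular to the members. On recovered reads edgeR called 9.52% of 378 and DESeq2 13% of the 399 miRNAs it gave an adjusted p, and 0 of the same 4 rows. Without Moderate replicate 5, limma called 11.7% and again 0 members. The median difference of the 4 distinct rows was 0.06 on the log2 scale, against 0.03 over all fitted miRNAs. In whole tissue, fewer cells of a type and less RNA per cell cannot be told apart.

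miR-9-5p ranged from 16.9 to 47.9 under High with a median of 35.1, and from 14.1 to 52.0 under Moderate with a median of 32.8. All 15 High libraries lay within the Moderate range, and 10 of them lay above its median. The difference, High minus Moderate, was 0.12 on the log2(value + 0.5) scale (standard error 0.16, 95% confidence interval -0.20 to 0.44, adjusted p = 0.718 in limma). The interval still allows a level 0.871 to 1.35 times that under Moderate. Its other arm, miR-9-3p, lay outside the filter. It ran from 0.118 to 0.782 under High (median 0.352) and from 0 to 0.535 under Moderate (median 0.263), with 1 to 17 and 0 to 8 reads. The highest 5 values were all from High libraries, and 12 of 15 High libraries lay above the Moderate median. In the fit without a filter, where 0% of 838 miRNAs were called (104 at an unadjusted p under 0.05), its difference was 0.18 (standard error 0.12, adjusted p = 0.608 in limma). That value depends on the pseudocount at such low levels: it was 0.38 with a pseudocount of 0.1 (adjusted p = 0.588 in limma), and on recovered reads 0.48 in edgeR (adjusted p = 0.501) and 0.50 in DESeq2, which gave no adjusted p. The library at 0, Moderate replicate 4, could hold up to 0.312, the level of 3 reads.

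miR-124, counted alike as miR-124a and miR-124b, was the 1 member with a lower mean under High. It ran from 1.72 to 5.36 under High (median 3.32) and from 1.99 to 5.91 under Moderate (median 3.58). Of the High libraries, 13 lay within the Moderate range and 9 below its median. The difference was -0.13 (standard error 0.15, 95% confidence interval -0.44 to 0.18, adjusted p = 0.680 in limma).

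The 5p arm of miR-129 ran from 3.02 to 7.34 under High (median 5.58) and from 2.63 to 8.53 under Moderate (median 4.85). The High values lay entirely within the wider Moderate range. The difference was 0.04 (standard error 0.15, 95% confidence interval -0.26 to 0.35, adjusted p = 0.872 in limma). The 3p arm ran from 0.788 to 3.24 (median 2.18) and from 0.822 to 3.02 (median 1.94), with a difference of 0.07 (standard error 0.15, 95% confidence interval -0.22 to 0.37, adjusted p = 0.814 in limma). Moderate replicate 6 was lowest in the 5p arm and the lowest Moderate library in the 3p arm, and Moderate replicate 12 was the highest Moderate library for miR-9-5p, miR-124 and both miR-129 arms.

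**Figure D2:**
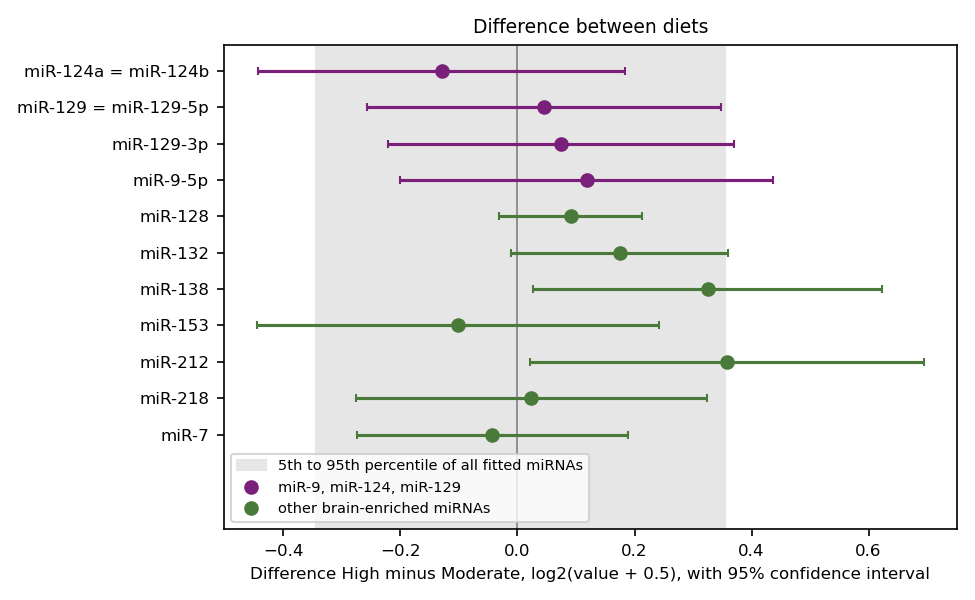
Difference High minus Moderate on the log2(value + 0.5) scale with its 95% confidence interval (horizontal axis) for the 4 distinct fitted rows of miR-9, miR-124 and miR-129 and for 7 other brain-enriched miRNAs. All 4 intervals of the first group span 0, and the grey band marks the 5th to 95th percentile of all 387 fitted miRNAs, -0.34 to 0.35.

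Within the shallow libraries (11 High, 13 Moderate) the differences were 0.07 for miR-9-5p, -0.19 for miR-124, 0.04 for miR-129-5p and 0.07 for miR-129-3p. Within the deep ones (4 High, 2 Moderate, no test) they were 0.27, -0.14, 0.20 and 0.12. The sign was thus the same at both depths. The label used for diet moved the values further. By the diet in the titles, miR-9-5p stood at -0.28 and miR-9-3p at -0.12. In the 12 libraries whose labels name the same diet miR-9-5p stood at -0.20, and in the 18 whose labels conflict, at 0.33 by the diet characteristic. miR-129-5p stood at 0.20 by the titles, 0.31 in the 12 libraries and -0.13 in the 18. miR-129-3p stood at 0.16, 0.29 and -0.07 in the same order, and miR-124 at -0.10, -0.28 and -0.03. None of these values passed (adjusted p of miR-9-5p 0.981, 0.643 and 0.478 in limma), and which label is right cannot be told from them.

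Moderate replicate 5 was within the range of the other libraries for all members in the deposited scale, with miR-9-5p at 43.3. As a share of all its reads, however, each of the 4 fitted members was at its lowest there. Expressed as CPM of all reads without TMM, miR-9-5p was at 10.2 there, where the others ran from 16.67 to 59.4. miR-124 was at 1.13 (1.91 to 6.54), miR-129-5p at 1.24 (2.39 to 9.61) and miR-129-3p at 0.450 (0.748 to 3.63). Leaving this library out gave differences of 0.15, -0.10, 0.05 and 0.07 in the same order. With CPM of all reads in all 30 libraries, which moved the median of all miRNAs to 0.21, miR-124 stood at 0.04 and miR-9-5p at 0.33.

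**Figure D3:**
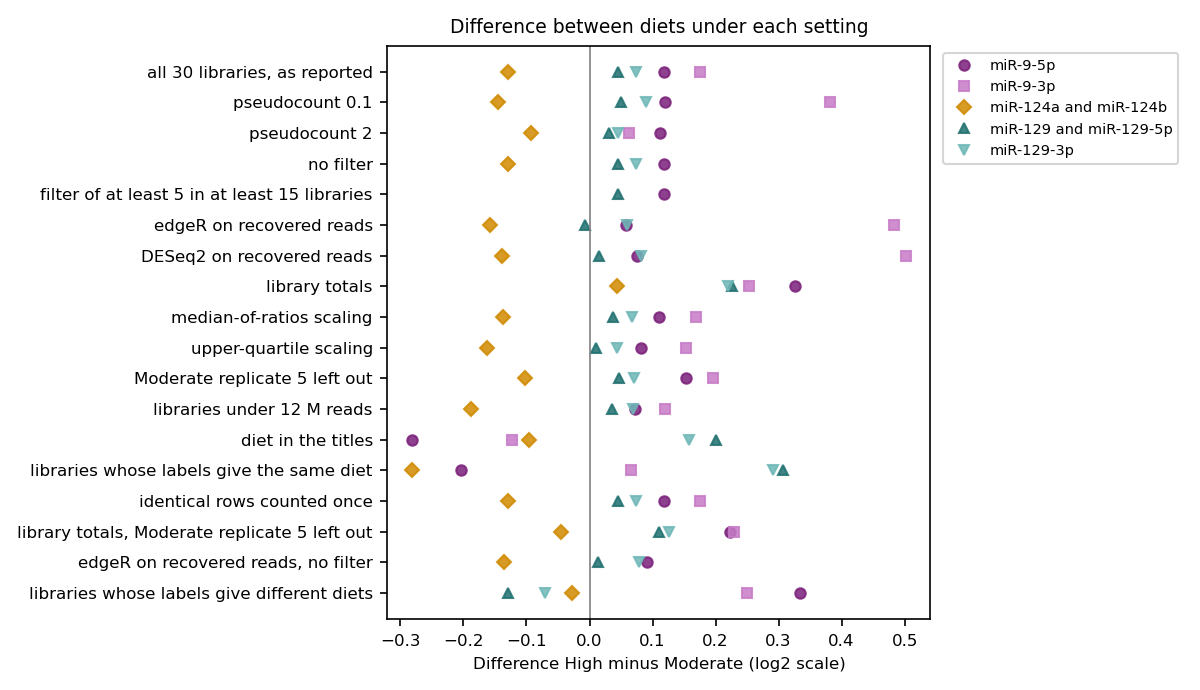
Difference High minus Moderate on the log2 scale (horizontal axis) for the 5 distinct rows under each way of processing (vertical axis, 1 symbol per row). miR-9-5p moved from 0.12 to -0.28 by the diet in the titles, and no value passed an adjusted p of 0.05.

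The other brain-enriched miRNAs, chosen by name (miR-7, miR-128, miR-132, miR-137, miR-138, miR-153, miR-212, miR-218, miR-219 and miR-488), had 13 rows, of which 7 passed the filter. Of these 7, 0 were called higher and 0 lower in limma, where 4.91% of all fitted miRNAs were called. The difference was positive in 5 and negative in 2, with a median of 0.09. An unadjusted p under 0.05 was found in limma for 2 (28.6%, against 21.2% of all fitted miRNAs). These were miR-212, at 0.36 (standard error 0.165, adjusted p = 0.189 in limma), and miR-138, at 0.33 (standard error 0.15, adjusted p = 0.183). miR-132, which is made from the same transcript as miR-212 and responds to neuronal activity, stood at 0.17 (standard error 0.09, adjusted p = 0.270). edgeR and DESeq2 also called none of the 7. The most abundant was miR-128, at 114 under High and 107 under Moderate, above the level of miR-9-5p. miR-137, the rows of miR-219 and miR-488 did not pass the filter and had mean levels under 1 in both diets.

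No variation beyond counting error was detected in the proportion of the 2 arms of miR-129. The 3p arm had only 4 to 48 reads per library, which limits what could be seen. In all 30 libraries the 5p arm had more reads than the 3p arm, with 1686 against 667 reads in total, a ratio of 2.53. Per library the ratio ran from 1.52 (High replicate 6) to 3.83 (High replicate 13), and its variation was no larger than counting error (chi-square per degree of freedom 0.637 over the reads of the 30 libraries). Diets did not differ detectably: the log2 ratio was 1.15 ± 0.26 (SD, n = 15) under High and 1.18 ± 0.21 (SD, n = 15) under Moderate, a difference of -0.03 (two-sided permutation test, p = 0.735). The arms of miR-9 were further apart in level. Its 5p arm had 10440 reads in total and its 3p arm 121, a ratio of 86.3. It was 77.5 over the High libraries and 102 over the Moderate ones, with no test between diets because the 3p arm did not pass the filter. Over the libraries this ratio, too, varied no more than counting error (chi-square per degree of freedom 0.798).

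Across calves, whatever their diet, miR-9-5p and miR-124 varied together. Over the 30 libraries, miR-9-5p and miR-124 had a Pearson r of 0.70 on the log2(value + 0.5) scale (permutation p = 1e-05, the lowest possible with 100000 resamples, 5e-05 adjusted over 10 pairs) and a Spearman rho of 0.68 (permutation p = 9e-05, 0.00045 adjusted). The r was 0.64 without the 2 libraries farthest from the median of miR-9-5p, 0.69 without Moderate replicate 5, 0.63 within High, 0.83 within Moderate, 0.72 in the shallow libraries and 0.60 in the 6 deep ones. The ratio of their reads varied somewhat more than counting error (chi-square per degree of freedom 1.91), and that of miR-9-5p to miR-129-5p much more (7.04). Moderate replicate 15, with the lowest miR-9-5p at 14.1, also had the lowest Moderate value of miR-124, and Moderate replicate 12 had the highest of both. For the other arm, miR-9-3p, the relation to miR-124 did not pass after adjustment. Its r was 0.38 (permutation p = 0.0406, 0.101 adjusted) and its rho 0.36 (permutation p = 0.0522, 0.131 adjusted).

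The arms of miR-129 followed each other, while no relation of either to miR-9-5p or miR-124 was detected over all libraries. miR-129-5p and miR-129-3p had r = 0.83 (permutation p = 1e-05, 5e-05 adjusted) and rho = 0.79 (permutation p = 1e-05, 0.0001 adjusted), with r = 0.78 without the 2 libraries farthest from the median of the 5p arm. Within the shallow libraries r was 0.89, but within the 6 deep ones it was -0.03. miR-9-5p had r = 0.19 with miR-129-5p (permutation p = 0.327, 0.525 adjusted; rho = 0.22, permutation p = 0.232, 0.465 adjusted). miR-124 had r = 0.13 with it (permutation p = 0.481, 0.525 adjusted; rho = 0.07, permutation p = 0.719, 0.773 adjusted). Within diets miR-124 had r = -0.27 (High) and 0.47 (Moderate) with miR-129-5p and -0.15 and 0.41 with miR-129-3p. For miR-9-5p with miR-129-5p these were 0.07 and 0.24, and r was 0.34 without the 2 libraries farthest from the median of miR-9-5p. The arms of miR-9 had r = 0.50 (permutation p = 0.00536, 0.0179 adjusted; rho = 0.47, permutation p = 0.0096, 0.032 adjusted), and 0.41 without the 2 farthest libraries. Of the 10 pairs, 3 passed after adjustment. Whether these correlations differ from each other was not tested.

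**Figure D4:**
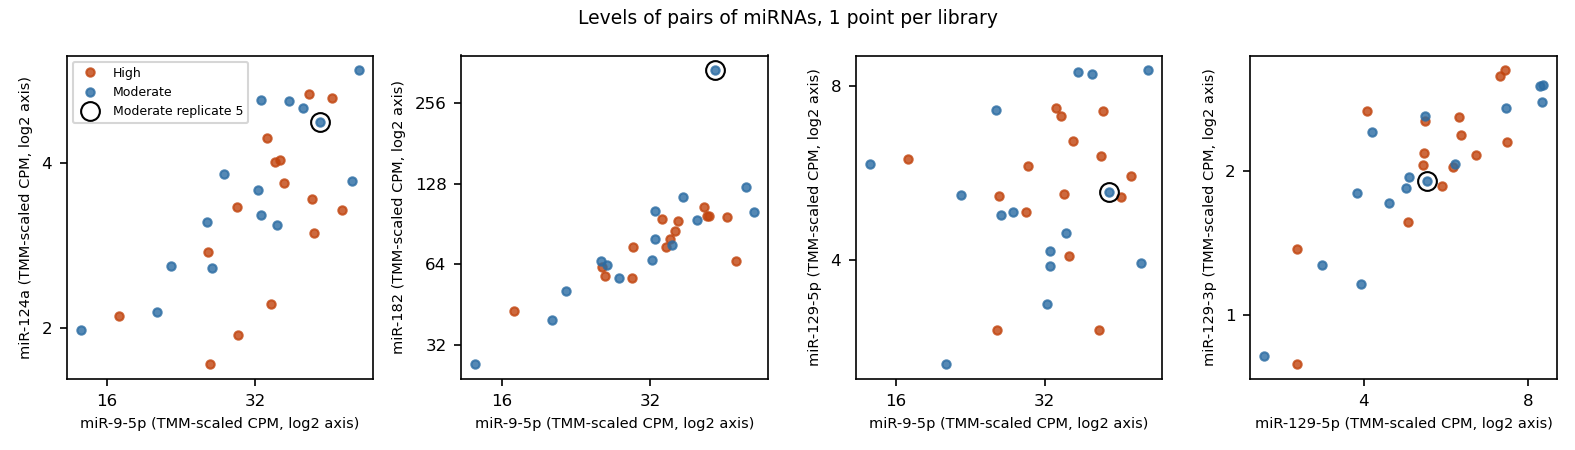
Levels of 4 pairs of miRNAs (TMM-scaled CPM, log2 axes on both sides), 1 point per library, coloured by diet, with Moderate replicate 5 circled. miR-124a and miR-182 rise with miR-9-5p (r = 0.70 and 0.78 over 30 libraries), miR-129-5p against miR-9-5p had r = 0.19, and the arms of miR-129 follow each other (r = 0.83).

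Among the 381 other fitted miRNAs, those whose levels were most like miR-9-5p were miR-182 (r = 0.78, rho = 0.83), miR-449a (r = 0.73, rho = 0.68) and miR-183 (r = 0.73, rho = 0.79), where the median r was -0.10. The same 3, in the same order, were most like miR-124, with r = 0.67, 0.60 and 0.57. They were picked as the highest, so these values are descriptions without a test. miR-182 and miR-183 are made from 1 cluster known from sensory organs, and miR-449a is known from multiciliated epithelium and male germ cells. miR-182 and miR-183 were highest in Moderate replicate 5, at 339 and 26.2, against at most 124.1 and 7.52 elsewhere. Without that library the r with miR-9-5p was 0.89 for miR-182, 0.84 for miR-183 and 0.76 for miR-449a. With that library kept and the 2 libraries farthest from the median of miR-9-5p left out, r was lower, at 0.69, 0.62 and 0.63 in the same order. For miR-182 it was 0.80 within High and 0.93 within Moderate without replicate 5, and 0.90 in the 23 other shallow libraries and 0.76 in the 6 deep ones. The r of miR-449a with miR-124 was -0.24 in the 6 deep libraries.

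The range over calves was wide. In Moderate replicate 15, with miR-9-5p at 14.1, miR-182 was at 27.1 and miR-183 at 1.49, the lowest of all libraries for each. In Moderate replicate 7, with miR-9-5p at 50.2, miR-182 was at 124.1, the highest outside Moderate replicate 5. Some libraries departed from the pattern: High replicate 15, with miR-9-5p at 47.9, had miR-182 at 65.8 and miR-183 at 4.70, both under their medians of 77.6 and 4.94. No difference between diets was detected in the 3. The log2 difference was -0.03 for miR-182 (95% confidence interval -0.48 to 0.42, adjusted p = 0.949 in limma), 0.02 for miR-449a (-0.33 to 0.38, 0.949) and -0.01 for miR-183 (-0.48 to 0.45, 0.981). Among the 7 other brain-enriched miRNAs that were fitted, r was highest for miR-153, at 0.57 with miR-9-5p and 0.54 with miR-124. It was lowest for miR-132, at -0.16 and -0.11. For miR-153 the values were 0.43 and 0.40 without the 2 libraries farthest from the median of the member, and -0.19 and -0.0033 in the 6 deep libraries.

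The miRNAs most like miR-129 were others, and the likeness was weaker. Over the 30 libraries, miR-129-5p was most like miR-30b-3p (r = 0.44), let-7c (r = 0.41) and miR-1388-3p (r = 0.41). miR-129-3p was most like miR-1388-3p (r = 0.46), miR-2320-3p (r = 0.42) and miR-132 (r = 0.41). These lists changed when Moderate replicate 5 was left out. The miRNAs named for miR-129-5p then ranked 3, 2 and 6, and those named for miR-129-3p ranked 1, 4 and 6. The r of miR-129-5p with miR-30b-3p was 0.12 within High and 0.75 within Moderate without replicate 5. With miR-182, the closest to miR-9-5p, miR-129-5p had r = 0.16. All these correlations share the depth, scaling and cell makeup of each library.

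**Figure D5:**
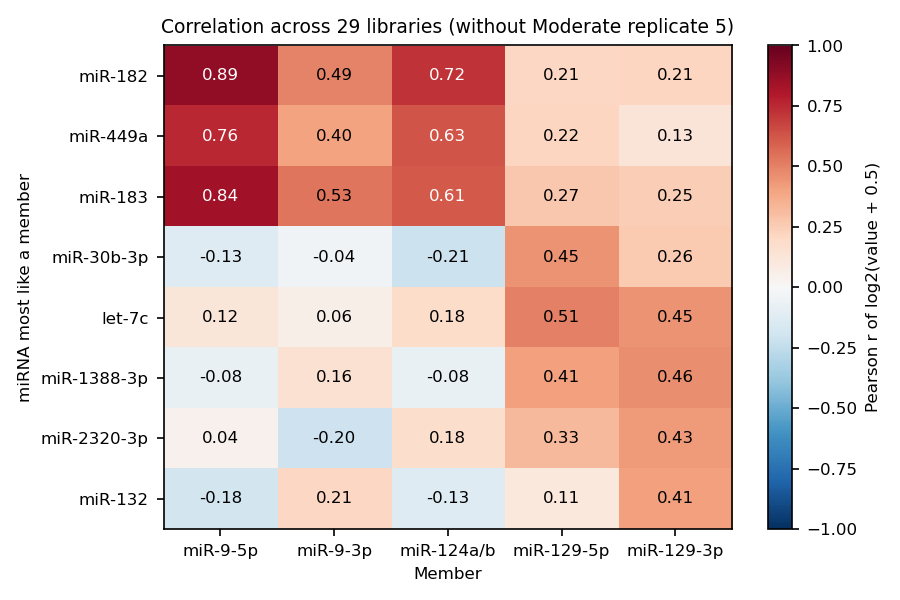
Pearson r of log2(value + 0.5) across the 29 libraries without Moderate replicate 5, for each distinct member (columns). The rows are the miRNAs that were most like any of the 4 fitted members over all 30 libraries. miR-182, miR-183 and miR-449a had r from 0.61 to 0.89 with miR-9-5p and miR-124 and from 0.13 to 0.27 with the arms of miR-129.

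Summed levels of 8 lists of cell-type marker miRNAs were set beside the members, and the 2 with the highest and lowest r to miR-9-5p are given first. The germ cell list (miR-34b, miR-34c and the miR-449 rows, 5 of 6 above 0, miR-449d listed at 0) ran from 90.5 to 265 under High (median 115). Under Moderate it ran from 22.8 to 185 (median 76.1), so that every High library lay above the Moderate median. A difference between diets in the summed lists was not tested. The germ cell list had r = 0.27 with miR-9-5p, 0.13 with miR-124 and 0.26 with miR-129-5p. Without Moderate replicate 5 these were 0.44, 0.29 and 0.31. The list holds miR-449a, named above for its likeness to miR-9-5p. The epithelial list (miR-141, miR-429 and 3 rows of miR-200, all 5 above 0) ran from 11.5 to 17.4 under High and from 10.7 to 24.8 under Moderate. It had r = -0.31 with miR-9-5p, -0.28 with miR-124 and -0.48 with miR-129-5p. For miR-129-5p that r was -0.05 within High and -0.73 within Moderate without replicate 5. For the other 6 lists (gonadal somatic cells, smooth muscle, endothelium, red blood cells, leukocytes and striated muscle) r with the members ran from -0.33 to 0.31 over all libraries. In the striated muscle list 4 of 6 rows were above 0, and miR-1 and miR-206 were at 0 in all libraries. Smooth muscle with miR-9-5p had r = 0.60 within High and -0.51 within Moderate without replicate 5. The part of these cell types in the levels of the members was not tested.

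RefSeq's genes for the cattle assembly ARS-UCD2.0 give the locations: the 3 miRNAs have 7 gene copies: 2 of miR-9, 3 of miR-124 and 2 of miR-129. The copies of 1 miRNA do not neighbour each other. MIR9-2 lies inside a long non-coding RNA gene, between the coding genes TMEM161B and MEF2C, a transcription factor of muscle and neurons. MIR9-1 lies between POLG and RHCG. MIR124A-1 lies inside another long non-coding RNA gene, between MSRA and KIF13B, and MIR124B lies beside YTHDF1. MIR124A-2 lies between YTHDF3 and BHLHE22, a transcription factor of neurons. MIR129-1 lies between SND1 and LEP, the gene of the satiety hormone leptin, and MIR129-2 between TTC17 and HSD17B12. From mature reads alone the contribution of each copy cannot be told apart.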

How the data were processed

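Per the submitters' processing notes, FastQC 0.11.8, cutadapt 2.6, R 3.4 and edgeR 3.5 were used; for the aligner, miRNA reference, build and division of shared reads, nothing is given in the sources used here. As the labels link it, the authors deposited 1 table of normalized signal, not raw counts: its values are TMM-scaled CPM, as worked out from them. Dividing each library by the worth of 1 read gave whole reads (within 0.02 read) for 95.3% of 18379 values above 0, and for all values of the members. TMM factors from these reads differed from the deposited scale by at most 5.65e-05 (natural log). Of 435 library pairs none agreed within sampling noise (lowest chi-square per degree of freedom 67.7).

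Diets were compared on log2(value + 0.5) by limma 3.58.1 (trend fit), diet as the only term, two-sided, with Benjamini-Hochberg adjustment over all 387 miRNAs at 1 or more in at least 15 libraries (in subsets, the same share), and a threshold of 0.05. edgeR 4.0.16 (36 called of 378) and DESeq2 1.42.0 (52 of the 399 with an adjusted p) were run on recovered reads, fractions rounded. Fits were tested on simulated data. R 4.3.3 and SciPy 1.17.1 were used, with 100000 resamples in permutation tests. Named were all members, brain-enriched miRNAs past the threshold or among the 3 smallest p, and the 3 miRNAs most like each fitted member by Pearson r; any other miRNA was named after its values were seen. Naming by shared seed was planned and not done, since mature sequences were not used here. Members, lists and rules were chosen with earlier results of these data known. Replicate numbers follow accession order.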

Additional observations from a re-analysis of the deposited data

How the results depend on the processing

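No member passed an adjusted p of 0.05 under any setting that gave one (79 of 80 values, lowest 0.381 in limma; DESeq2 gave none for miR-9-3p), and 73 of the 80 kept the direction of the reported value. The 7 that turned were miR-9-5p by title diet (-0.28) and in the 12 libraries whose labels name 1 diet (-0.20), miR-9-3p by the titles (-0.12), miR-124 with library totals (0.043), miR-129-5p in edgeR (-0.0078), and miR-129-5p (-0.13) and miR-129-3p (-0.070) in the 18 libraries whose labels conflict, an alternative chosen after seeing the data. The cause was not tested. For miR-9-3p, 0.18 as reported, the settings ran from -0.12 to 0.50 (DESeq2). The arm ratio of miR-129 turned by the titles (0.042) and in the 12 libraries (0.016). Leaving out each library in turn gave 0.04 to 0.19 for miR-9-5p, 0.13 to 0.21 for miR-9-3p, -0.18 to -0.08 for miR-124, -0.016 (without Moderate replicate 6) to 0.10 for miR-129-5p, 0.0093 to 0.15 for miR-129-3p and -0.065 to 0.016 (without High replicate 6) for the arm ratio, with 0 brain-enriched miRNAs called in each.

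The number of miRNAs called in the whole table, 19 as reported, moved more: 0 without a filter, with library totals, by the titles, in the 12 and in the 18 libraries; 36 in edgeR; 52 in DESeq2; 30 with upper-quartile scaling (10 higher, 20 lower, against 9 and 10); 45 without Moderate replicate 5; 31 with library totals and without that library; 3 in the shallow libraries; and 0 (without High replicate 5) to 45 when each library was left out. The low read numbers of miR-9-3p and miR-129-3p limit what could be detected. The diets were compared without pairing, since each library came from a different calf and the labels used here name no pairs of calves.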
